A study of Rattus norvegicus with 6 samples.

Results

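The subject is a set of 10 genes for enzymes that interconvert steroid hormones in rat liver: Hsd17b6, Hsd17b2, Hsd17b4, Hsd17b10, Hsd17b11, Hsd17b13, Hsd11b1, Srd5a1, Hsd3b5 and Akr1c14. Every non-control probe whose RefSeq transcript accession maps to one of these symbols was taken, which gave 17 of the 61657 non-control probes on the array and 10 of the 27642 measured entries. Of those entries 10982 have a gene symbol and 16660 are accessions or probes without one, so shares given below for all genes rest mostly on entries with no symbol. The set was chosen by its log2 differences between TCEP and corn oil livers: Hsd17b6 for its lower signal in TCEP livers, and the other 9 as enzymes of related steroid chemistry, with the same comparison already known. Their differences between the groups are therefore given as a description and carry no test of their own.

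Liver RNA came from 6 male Sprague-Dawley (Crl:CD(SD)) rats, which are outbred, bought at 5 weeks of age. In the dosed group 3 animals received 400 mg/kg/day of tris(2-chloroethyl) phosphate (TCEP), a phosphate ester with chlorinated side chains that is used as a flame retardant, and in the control group 3 animals received corn oil, the vehicle. The labels give the dosing as 9 weeks in the treatment protocol and as 28 days in the design text. Each animal had 1 array, and all values are from whole liver.

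Hydroxysteroid dehydrogenases move a steroid between its alcohol and ketone forms, and the direction decides whether a hormone is activated or spent. The liver is the main site where androgens, oestrogens and corticosteroids are reduced, oxidised and then conjugated for excretion, and in rodents much of this chemistry differs between the sexes. Several enzymes that carry an Hsd17b name have another main substrate, such as fatty acids in the peroxisome or lipids of the droplet surface. Hsd17b6 is an oxidative enzyme of androgen breakdown that acts on androstanediol, Hsd17b2 oxidises oestradiol and testosterone, and Srd5a1 and Akr1c14 catalyse successive reductions of testosterone and its products.

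The TCEP arrays lay together on slide 3, corn oil replicates 1 and 3 on slide 1 and corn oil replicate 2 on slide 2, so slide and treatment cannot be told apart. Corn oil replicate 2 was also scanned 23 days after the other arrays. The share of non-control probes that cleared background by the scanner software's own flag lay between 57.2% and 64.4%. All 12 hepatocyte markers, albumin among them, were well above background on all 6 arrays, and so were 17 of 17 probes of the steroid enzymes, none of them saturated. Of 11 adrenal and testis markers, all with probes on the array, 6 were not measured, Star, Cyp11a1 and Nr5a1 among them. The other 5, with Hsd3b1 and Cyp17a1 the brightest, were well above background on all 6 arrays. Precision is set by the 3 arrays in each group: over all genes, limma's SEs of the log2 differences had a median of 0.145.

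No steroid enzyme passed an adjusted p of 0.05, nor did any other of the 27642 genes (0% called; limma with Benjamini-Hochberg adjustment). The unadjusted p was under 0.05 for 2543 genes, or 9.2%, and for 8.16% of those with a symbol. Among the steroid enzymes Hsd17b6 had a lower mean signal in TCEP livers by a log2 difference of -1.39 ± 0.22 (SE, 3 animals per group), which is 2.63-fold lower. The other 9 had log2 differences between -0.36 and 0.23. The median over the 10 was 0.0063, against 0.0048 over all genes and 0.0142 over those with a symbol.

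Hsd17b6 had processed signals of 10034, 8411 and 14962 intensity units in TCEP replicates 1, 2 and 3, against 27165, 27232 and 25403 in corn oil replicates 1, 2 and 3. Scaled to each array's 75th percentile and put on the log2 scale, as all signals below, these were 4.17, 4.12 and 4.83 in the TCEP livers and 5.85, 5.88 and 5.58 in the corn oil livers. All TCEP values lay below all corn oil values, with a gap of 0.74 between the highest TCEP and the lowest corn oil value. TCEP replicate 3 stood above the other TCEP animals by about as much, 0.72 above replicate 2. The group means were 4.37 ± 0.40 in TCEP and 5.77 ± 0.17 in corn oil livers (SD, 3 animals each), so Hsd17b6 varied more between TCEP animals than between corn oil animals. In bulk liver RNA, fewer cells that express a gene and less of its RNA per cell cannot be told apart.

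The second Hsd17b6 probe gave the same picture. Its signals were 3.91, 3.81 and 4.59 in the TCEP livers and 5.62, 5.65 and 5.38 in the corn oil livers, and its log2 difference was -1.44 ± 0.22 (SE). Both probes correlated at 0.9997 over the 6 arrays, which share the same RNA. Without TCEP replicate 3 the Hsd17b6 difference was -1.63, without TCEP replicate 2 it was -1.27, and without corn oil replicate 2, which leaves arrays of 1 scan day, it was -1.34. Of all genes 43, or 0.156%, had a lower difference, 19 of them with a symbol. That rank describes a gene picked for this value.

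**Figure D1:**
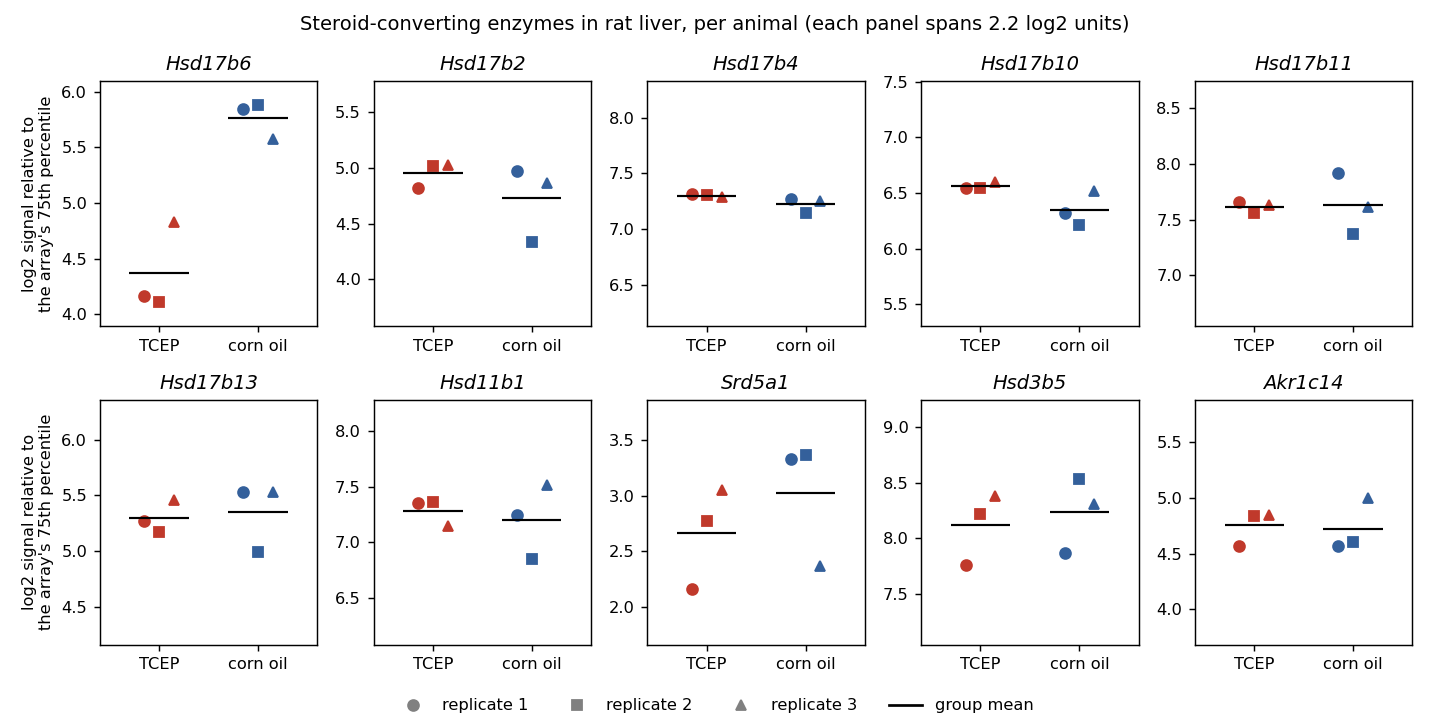
Log2 signal of each of the 10 enzymes, relative to the array's 75th percentile, in the 3 TCEP (red, left) and 3 corn oil livers (blue, right), with symbols for replicate numbers and a line for the group mean; each panel spans the same range. Hsd17b6 is separated by 0.74 log2 units, whereas in Hsd17b2, Hsd17b11, Hsd17b13, Hsd11b1, Srd5a1, Hsd3b5 and Akr1c14 the groups overlap.

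Hsd17b2, which oxidises oestradiol to oestrone and testosterone to androstenedione, had signals of 4.83, 5.02 and 5.02 in the TCEP livers and 4.98, 4.34 and 4.87 in the corn oil livers. The groups overlapped, and the log2 difference of 0.23 ± 0.18 (SE) came mostly from corn oil replicate 2, without which it was 0.03; without corn oil replicate 1 it was 0.35. Hsd17b2 is represented by 1 probe.

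Srd5a1, the steroid 5-alpha reductase that turns testosterone into dihydrotestosterone, had the second-lowest difference of the 10, -0.36 ± 0.35 (SE). Its signals were 2.16, 2.77 and 3.05 in the TCEP livers and 3.33, 3.37 and 2.37 in the corn oil livers. A single animal of each group set the spread: corn oil replicate 3 lay below 2 TCEP animals, and TCEP replicate 1 was lowest of all. The difference was -0.69 without corn oil replicate 3 and -0.11 without TCEP replicate 1. The second Srd5a1 probe gave -0.33 ± 0.44 (SE) and correlated with the first at 0.99 over the 6 arrays.

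Akr1c14, the rat 3-alpha-hydroxysteroid dehydrogenase that reduces dihydrotestosterone further, had signals of 4.57, 4.84 and 4.85 in the TCEP livers and 4.57, 4.60 and 5.00 in the corn oil livers. The groups overlapped almost fully, with a difference of 0.03 ± 0.16 (SE) whose sign changed in 6 of 18 alternative analyses. Hsd3b5, which in rodent liver works as a reductase of ketosteroids, had signals of 7.76, 8.22 and 8.38 in the TCEP livers and 7.87, 8.53 and 8.31 in the corn oil livers. In both groups replicate 1 was the lowest animal, and the difference was -0.12 ± 0.23 (SE). The other Hsd3b5 probes gave -0.11 ± 0.24 and -0.04 ± 0.28 (SE), and the difference was 0.06 without TCEP replicate 1, 0.03 with corn oil replicate 2 left out and -0.30 with corn oil replicate 1 left out. Akr1c14 and Hsd3b5 belong to families of close paralogs that neighbour them on the chromosome (Akr1c3 and Akr1c15 beside Akr1c14, Hsd3b2 beside Hsd3b5), so signal may be shared and their separate levels are uncertain.

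Hsd11b1, which regenerates active corticosterone from its inert 11-keto form in the endoplasmic reticulum, had signals of 7.35, 7.36 and 7.15 in the TCEP livers and 7.25, 6.85 and 7.52 in the corn oil livers. The TCEP values lay inside the corn oil range, with a difference of 0.08 ± 0.18 (SE) and the same 0.08 from the second probe. Without corn oil replicate 2 it was -0.10, and without corn oil replicate 3 it was 0.24. The difference was -0.0008 with quantile normalization alone and -0.14 with normexp background correction followed by quantile normalization. Its cofactor supplier H6pd, which makes NADPH in the same compartment, had -0.07 ± 0.14 (SE).

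Hsd17b4, the peroxisomal multifunctional enzyme of fatty acid and bile acid side-chain oxidation, had signals of 7.31, 7.31 and 7.28 in the TCEP livers and 7.27, 7.15 and 7.25 in the corn oil livers. The groups did not overlap, yet the lowest TCEP and highest corn oil values nearly met. The difference of 0.08 ± 0.09 (SE) was -0.01 with quantile normalization alone and -0.06 with normexp background correction before it. The second Hsd17b4 probe gave 0.09 ± 0.08 (SE), and the probes correlated at 0.53 over the 6 arrays, the lowest of any gene here with several probes. Hsd17b10, a mitochondrial dehydrogenase of isoleucine breakdown and a subunit of mitochondrial RNase P, had signals of 6.54, 6.55 and 6.60 in the TCEP livers and 6.32, 6.21 and 6.52 in the corn oil livers. Its groups did not overlap either, by a small margin to corn oil replicate 3, and its difference was 0.21 ± 0.11 (SE). With quantile normalization alone it was 0.11, and with normexp background correction before it 0.04.

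Hsd17b11 and Hsd17b13 encode proteins of the lipid droplet surface and are chromosomal neighbours. Hsd17b11 had signals of 7.66, 7.57 and 7.63 in the TCEP livers and 7.92, 7.37 and 7.62 in the corn oil livers. Hsd17b13 had 5.27, 5.17 and 5.45 in the TCEP livers and 5.53, 4.99 and 5.53 in the corn oil livers. For both genes the TCEP animals lay between corn oil replicate 2, the lowest, and corn oil replicate 1. The differences were -0.02 ± 0.15 and -0.05 ± 0.18 (SE), the second Hsd17b13 probe also gave -0.05, and without corn oil replicate 2 they were -0.15 and -0.23. Without corn oil replicate 1 both signs turned, to 0.12 for Hsd17b11 and 0.04 for Hsd17b13. The levels of the pair correlated at 0.786 over the 6 arrays and at 0.548 without corn oil replicate 2; the arrays share slide and scaling.

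The sequences before the annotated starts of this neighbouring pair are shown because the genes lie side by side and had corn oil replicate 2 as their lowest animal. They are the 250 bases upstream of the start in the RefSeq table of assembly GRCr8, a later build than that of the array design, on the plus strand at chr14:6016440-6016689 for Hsd17b11 and chr14:6056539-6056788 for Hsd17b13. Capitals mark the pentamer CCAAT, searched on both strands as CCAAT and ATTGG.
Hsd17b11: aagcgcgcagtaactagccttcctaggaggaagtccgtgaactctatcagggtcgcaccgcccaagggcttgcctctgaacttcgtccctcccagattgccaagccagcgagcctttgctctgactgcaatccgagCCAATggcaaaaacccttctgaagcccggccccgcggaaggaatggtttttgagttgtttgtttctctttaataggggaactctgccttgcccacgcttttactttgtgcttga
Hsd17b13: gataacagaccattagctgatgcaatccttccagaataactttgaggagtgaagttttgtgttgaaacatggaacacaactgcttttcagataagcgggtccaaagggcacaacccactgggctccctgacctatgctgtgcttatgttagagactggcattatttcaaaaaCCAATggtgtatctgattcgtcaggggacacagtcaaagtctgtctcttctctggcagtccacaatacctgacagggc
Each window held 1 CCAAT. At least 1 was present in 34% of the 33469 windows of that length in the table, and in 5 of the 6 steroid enzymes listed there. The windows differed in CG dinucleotides, with 12 before Hsd17b11 and 2 before Hsd17b13, against a median of 5. Neither count was rare, as 31.5% of all windows had at least 12 and 28.6% had at most 2. The motif was chosen after the sequences were seen, and a match is not a site. Hsd17b6, Hsd17b2, Hsd11b1 and Hsd3b5 have no entry in the table.

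**Figure D2:**
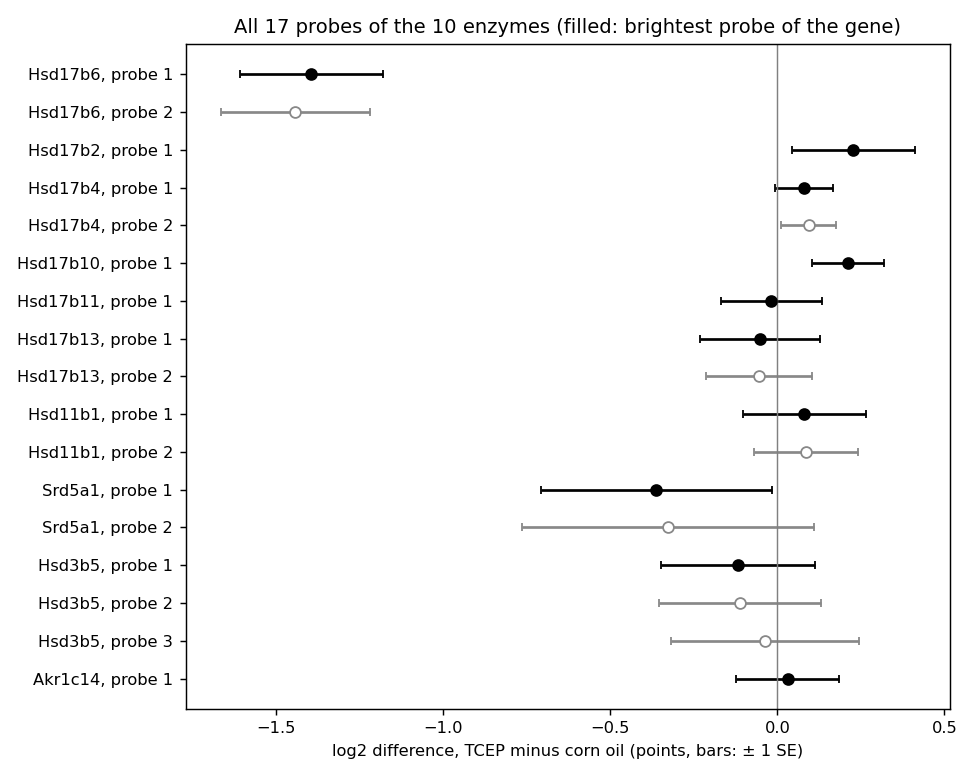
Log2 differences, TCEP minus corn oil, of all 17 probes with bars of 1 standard error; filled points are the brightest probe of a gene. Both Hsd17b6 probes lie at -1.39 and -1.44, and the other 15 lie between -0.36 and 0.23.

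The groups did not overlap in 3 of the 10 genes, against 17.4% of all genes and 16.7% of those with a symbol: Hsd17b6 was lower (7.06% of all genes were lower without overlap), and Hsd17b4 and Hsd17b10 were higher (10.3%). The comparison chose the set, so nothing is read from this share. With quantile normalization, alone or after normexp, the count was 1, namely Hsd17b6, against 16.4% and 18% of all genes. The signs of Hsd17b6, Hsd17b2, Hsd17b10 and Srd5a1 were the same in all 18 alternative analyses run, and those of the other 6 changed in 2 to 6 of them.

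The spread between animals of 1 group is also given as a description. In 9 of the 10 enzymes the SD was larger among corn oil than among TCEP livers, against 62.4% of all genes and 63.4% of those with a symbol, and Hsd17b6 was the exception. The median SD over the 10 was 0.133 in TCEP livers and 0.294 in corn oil livers, and over all genes 0.139 in TCEP livers and 0.187 in corn oil livers. Corn oil replicate 2 was the lowest corn oil array in 6 of the 10, Hsd17b2, Hsd17b4, Hsd17b10, Hsd17b11, Hsd17b13 and Hsd11b1, against 34.9% of all genes. That array alone had its slide and its scan day; the part of slide or scan day in this was not tested. The highest correlation between different enzymes, 0.885 for Hsd17b2 and Hsd17b4 over the 6 arrays, was 0.044 without it.

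Genes whose pattern over the 6 arrays was most like that of Hsd17b6 were sought among the 10438 genes that have a symbol and cleared background on all 6 arrays. The 5 with the highest Pearson correlation were Wfdc10a (0.988), Akp3, an intestinal-type alkaline phosphatase (0.987), Mansc1 (0.984), Med26, a Mediator subunit (0.976), and Oscar, a receptor of the osteoclast lineage (0.974). They tracked Hsd17b6 in shape and not in size, with log2 differences between -0.37 and -0.14. Like Hsd17b6, each had TCEP replicate 3 as the highest TCEP animal, and after the group means were taken out the correlations were 0.82 to 0.93. The 5 most opposite were Hmg20b, Lage3, 2700097O09Rikl, Mgme1, a mitochondrial exonuclease, and Tdp2, a DNA repair phosphodiesterase, at -0.987 to -0.979. Among the steroid enzymes the highest correlation with Hsd17b6 was that of Srd5a1, 0.590, and the lowest that of Hsd17b4, -0.758. With 6 arrays in 2 groups, any gene that differs between the groups correlates with Hsd17b6, so these values are descriptions.

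**Figure D3:**
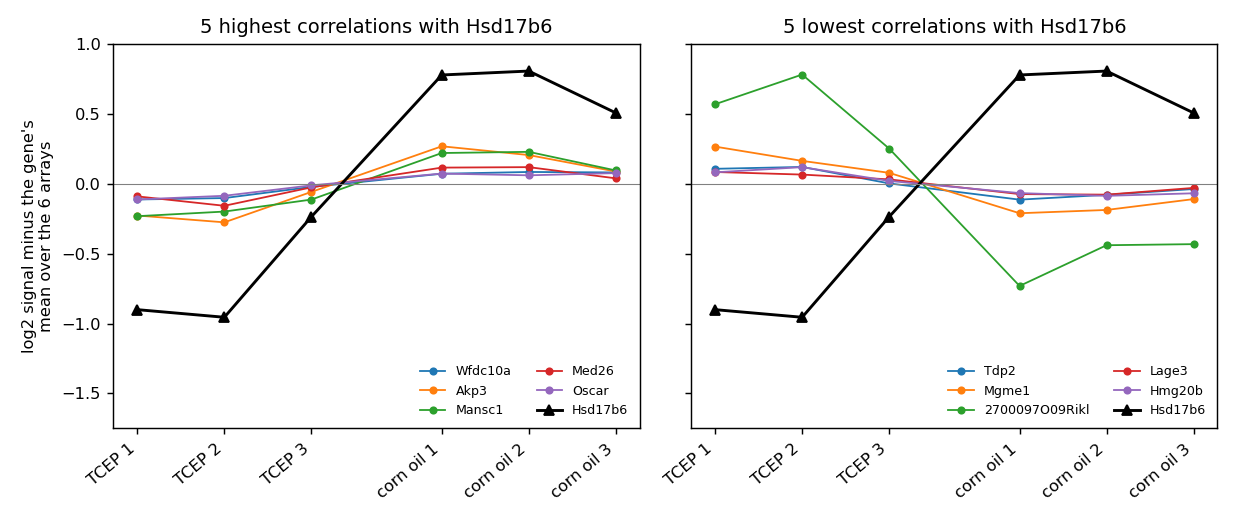
Log2 signal minus the gene's mean over the 6 arrays for Hsd17b6 (black triangles) and the 5 genes with the highest (left panel) and lowest (right panel) correlation with it; the TCEP arrays stand left of the corn oil arrays. In both panels TCEP replicate 3 is the TCEP array nearest to the corn oil arrays, and the range of Hsd17b6 exceeds that of the other genes shown.

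Other genes of steroid handling were compared from lists drawn up by role. Of 96 listed, 78 were measured; 0 passed the adjusted threshold as higher and 0 as lower (limma), with 6 higher and 1 lower, the P450 reductase Por (-0.40 ± 0.16, SE), at an unadjusted p under 0.05. Their median log2 difference was 0.0067, and groups did not overlap in 14.1%, against 17.4% of all genes. The 7 with an unadjusted p under 0.05 are 8.97% of the 78, against 9.2% of all genes, so both shares lay near or below the background. The largest difference of the 78 was that of Cyp3a9, a P450 of the steroid-hydroxylating 3A family. It had signals of 4.74, 4.25 and 4.44 in the TCEP livers and 3.46, 3.37 and 3.20 in the corn oil livers, without overlap, and a difference of 1.13 ± 0.15 (SE, limma adjusted p = 0.291). Hsd17b6 lay below all 78, whose lowest member was Fkbp5 at -0.76 ± 0.87 (SE). That ranking depends on how the lists were drawn. The sterol hydroxylase Cyp7a1, listed with the central-vein genes and not among the 78, was lower than Hsd17b6, at -1.74 ± 0.49 (SE). So were Spink1 and Prlr, listed with the male-predominant and female-predominant liver genes, at -1.85 ± 0.74 and -2.13 ± 1.72 (SE), both with overlap.

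The nearest relatives of Hsd17b6 in the dehydrogenase family, the retinol dehydrogenases Rdh7 and Rdh16, had differences of 0.13 ± 0.11 and -0.14 ± 0.50 (SE). In the list of other hydroxysteroid dehydrogenases, 0 of 13 measured members passed in either direction, and Hsd17b8, of mitochondrial fatty acid synthesis, and Hsd3b1 had 0.05 ± 0.10 and -0.09 ± 0.23. Of 14 steroid and carbonyl reductases 0 passed; Akr1c12 had -0.11 ± 0.16, Tecr, of fatty acid elongation, 0.29 ± 0.12, Dhrs4 0.16 ± 0.13 and Akr1d1, the steroid 5-beta reductase, -0.39 ± 0.26. Of 21 steroid P450 hydroxylases 0 passed; the male-predominant Cyp3a2, Cyp2c11 and Cyp2c13 had 0.44 ± 0.11, 0.49 ± 0.13 and -0.11 ± 0.16, and Cyp2c7 -0.17 ± 0.14. Of 12 sulfotransferases, sulfatase and supply genes 0 passed, with Sult1a1 at -0.22 ± 0.14, Sult1c3 at -0.08 ± 0.11, Sult1b1 at 0.04 ± 0.20 and Sult2a1 at -0.23 ± 0.38. Of 18 receptors, carriers and electron donors 0 passed, with the steroid-binding membrane proteins Pgrmc1 and Pgrmc2 at 0.41 ± 0.17 and 0.06 ± 0.24, the sex hormone carrier Shbg at 0.00 ± 0.34 and cytochrome b5, Cyb5a, at 0.32 ± 0.11.

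**Figure D4:**
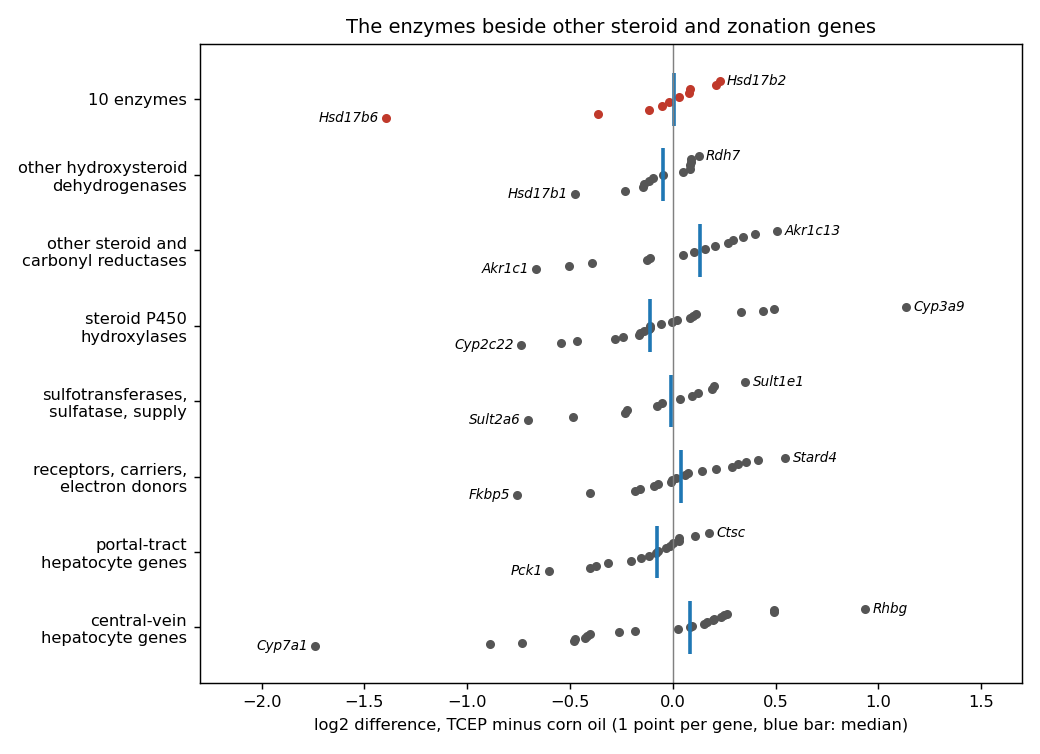
Log2 differences, TCEP minus corn oil, for the 10 enzymes (red) and for other steroid and hepatocyte zonation genes (grey), 1 point per gene, with the lowest and highest gene of each group named and the median as a blue bar. Hsd17b6, at -1.39, lies apart from the other 9 enzymes, and of the genes drawn Cyp7a1 alone, at -1.74, lies lower.

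Hsd17b6 and Hsd17b13 are known in mouse liver as genes of hepatocytes near the portal tract, and Hsd11b1 as one of hepatocytes near the central vein. With these genes left out, 16 measured portal-tract genes had a median difference of -0.08 and 23 central-vein genes 0.08; 0 passed in either list, and among the brightest Arg1, of the urea cycle, had -0.40 ± 0.26, Serpina1 0.00 ± 0.12 and Cyp2e1 0.09 ± 0.19 (SE). Genes that glucocorticoids are known to induce, read here beside Hsd11b1, had a median of -0.30 over 16 measured, and 0 passed. Their means were lower in TCEP livers for 13 and higher for 3. Groups were without overlap in 0 of the 16, against 17.4% of all genes. The part of single animals in that median was not tested. The metallothioneins Mt1 and Mt2A had -0.20 ± 0.14 and -0.25 ± 0.14, Errfi1 -0.10 ± 0.19 and Pck1, of glucose production, -0.60 ± 0.34. Of 17 male-predominant liver genes, read beside Hsd3b5, 0 passed, with a median of 0.07 and Obp3, Mup5 and Mup4 at 0.00 ± 0.10, 0.15 ± 0.10 and 0.07 ± 0.11. Of 11 female-predominant genes, read beside Srd5a1, 0 passed, with a median of -0.23 and Cyp2a1 and Sult1e1 at -0.28 ± 0.17 and 0.35 ± 0.54. Means were lower in TCEP livers for 7 of the 11 and higher for 4. The only gene of that list without overlap was Cyp3a9, which was higher, at 1.13 ± 0.15 (SE). It made up 9.09% of the list, against 17.4% of all genes. In the male-predominant list 3 genes, or 17.6%, had groups without overlap, all higher in TCEP livers.

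Beside Hsd17b6, the summed signals of hepatocyte markers ran from 13.04 to 13.20 log2 units in TCEP livers and from 13.14 to 13.30 in corn oil livers, and those of 12 macrophage markers from 7.32 to 7.62 in TCEP livers and from 6.94 to 8.03 in corn oil livers. The sums of 7 endothelial markers ran from 5.46 to 5.59 in TCEP livers and from 5.38 to 5.68 in corn oil livers. The sums of 10 stellate markers ran from 5.26 to 5.32 in TCEP livers and from 5.33 to 5.46 in corn oil livers, and those of 7 cholangiocyte markers from 1.19 to 1.67 in TCEP livers and from 0.98 to 1.14 in corn oil livers, without overlap. Lymphocyte sums ran from 1.79 to 2.15 in TCEP and from 1.77 to 2.17 in corn oil livers over 8 markers, and erythroid sums from 9.66 to 10.29 in TCEP and from 9.55 to 10.18 in corn oil livers over 7. The part of other cell types in the Hsd17b6 difference was not tested.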

How the data were processed

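Total RNA from 6 livers was Cy3-labelled and hybridised to 1-colour Agilent arrays, per the labels' protocols. The authors' deposited intensity values are background-subtracted and linear. They were read from the scans with Agilent Feature Extraction, version 10.7.1.1 per the file headers and 10.7 per the submitters' processing notes. The outlier, saturation and above-background columns used are flags of 0 or 1, and the same files also hold median signals. The deposited value table is a ratio of the processed signal to its array's 75th percentile, as read from the values; its column medians were 0.0955, 0.0971 and 0.0953 for TCEP and 0.1, 0.103 and 0.0961 for corn oil replicates 1 to 3, with linear scale, no centring, and other steps by the authors not given in the sources used here.

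Processed signals were put on the log2 scale and each array's 75th percentile was subtracted, taken over 61657 non-control probes. Control spots (1319) were left out, 64 outlier-flagged spots were set to missing and 5 saturated spots kept. A probe was kept where every array of either group had it well above background (37043). RefSeq accessions named 27460 probes through a GRCr8 table, and each gene took its brightest probe; probes without a symbol kept the file's name, and these entries count among all genes. The 2 groups were fitted in R 4.3.3 with limma 3.58.1 (lmFit, eBayes), with two-sided p-values and Benjamini-Hochberg adjustment over 27642 genes. The steps were tested on simulated data. Each array was taken as 1 animal, from the labels' 3 animals in each group. SEs of second probes come from a fit over every probe.

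The genes and lists were chosen with earlier results of these data known. Named genes are the 10 enzymes and the 4 brightest measured genes of each list where none passed. The 5 genes most and the 5 least correlated with Hsd17b6 are also named. Por, Cyp3a9, Fkbp5, H6pd, Spink1, Prlr and those labelled at group ends in the plot of lists were chosen after their values were seen. A gene that the rule names is not reported here. Normexp (offset 50) used median signals, as the files hold no mean signal column, and was followed by quantile normalization throughout.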

Additional observations from a re-analysis of the deposited data

How the results depend on the processing

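In the 18 alternatives run, 0 genes passed the adjusted threshold, and 0 other steroid genes did; the smallest adjusted p ran from 0.0577, with corn oil replicate 3 left out, to 0.712, with TCEP replicate 3 left out. The number of steroid enzymes with separate groups, 3, was 1 with quantile normalization and 1 with normexp background correction. Of all genes 16.4% and 18% had separate groups in these settings. With every probe on its own the number was 5 of 17 probes, against 16.9% of all probes kept. With 1 array left out it was 3 to 4 of the 10, against 24.6% to 32.3% of all genes. The median difference of the 10 was -0.07 with quantile normalization alone and -0.14 with normexp before it, and ran from -0.06 to 0.07 with 1 array left out. Genes with separate groups, 4807, numbered 6813 to 8932 with 1 array left out, where fewer arrays overlap less by construction. The Hsd17b6 difference was -1.47 with quantile normalization, -1.53 with normexp, -1.34 with median centring and -1.39 with slide as a random block, and -1.63 to -1.27 with 1 array left out. Replicate numbers did not pair the arrays: deviations from the group means correlated at -0.049, -0.165 and -0.015, and 0 of 6 arrays correlated best with its own number. With the replicate block 0 genes passed and the unadjusted count was 1901. In that setting 3 enzymes had separate groups, against 17.4% of all genes, and Hsd17b6 had -1.39 ± 0.25 (SE). All 17 probes cleared background on all 6 arrays, so signal over background limited none of the 10.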
